A study of Mus musculus with 10 samples.

Results

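Open chromatin was compared between mouse epiblast stem cells (EpiSC) and neural progenitors (NSC, neural stem cells) by FAIRE-seq, in which crosslinked chromatin is sheared and the protein-poor DNA that stays in the aqueous phase of a phenol extraction is sequenced. All autosomal rows of the EpiSC list and of the NSC list were taken, which gave 938961 of the 1816946 sites in the 4 lists of the series: 387312 EpiSC sites, the whole of that list, and 551649 NSC sites, with 4219 NSC sites outside the autosomes left out. The EpiSC were E3 cells expanded on feeder fibroblasts blocked with mitomycin C, in conditioned medium with 5 ng/ml FGF2, and were freed from the feeders and kept on fibronectin for 2 days before crosslinking. The NSC, progenitors made from ES cells, were grown in N2B27 medium with 10 ng/ml each of FGF2 and EGF. Both were thus cultures exposed to FGF2, and neither is tissue. The series has 10 samples in 5 groups of 2, with 1 list per cell type; the labels give no strain, sex or genotype for these lines and do not say whether a list stands for 1 culture or several. The lists of ESC (E14 cells in LIF with inhibitors of MEK and GSK3) and of MEF (fibroblasts taken from E16.5 mouse embryos) served only to describe where the EpiSC and NSC sites were also open. A source label of the MEF samples names NSC chromatin, while their titles and cell type name fibroblasts, which were followed here.

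As background, EpiSC stand for the epiblast after implantation, a primed state that still holds the choice between all germ layers and is kept by FGF and activin signals. Neural progenitors have taken the neural path and can form neurons and glia. Accessible DNA marks promoters, enhancers and insulators. Promoters and insulators are often open in many cell types, whereas enhancers differ more between them, so the lists hold both common and cell-type-bound elements. The mm9 coordinates were matched to no gene, because no annotation of that build was used. Regions are therefore named by position, no sequence is printed, and the cell labels could not be checked against marker genes.

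EpiSC shared 38.9% of their sites with NSC, and NSC shared 26.9% of theirs with EpiSC. A shared site is one that overlaps a site of the other list by at least 1 bp. These were 150512 EpiSC sites (95% exact interval 38.71 to 39.01%) and 148364 NSC sites (26.8 to 27.0%). The intervals cover counting error only, neighbouring sites are not independent, and with 1 list per cell type no replicate test exists. Without a stretch of distal chromosome 14, from 86000001 to 121000000, on which NSC sites are dense, the shares were 38.5% (147769 of 383974) and 27.4% (145875 of 533283). NSC sites covered 10.0% of the autosomal bases and held 31.7% of the EpiSC bases and 29.99% of the EpiSC midpoints. EpiSC sites covered 7.02% of the autosomal bases and held 22.2% of the NSC bases and 19.1% of the NSC midpoints. With the NSC list cut to the length of the EpiSC list by score, the shares were 28.3% for EpiSC and 26.8% for NSC. Read depth is unknown, and it can set the length of a list.

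Joined into regions, both lists gave 777932 regions, of which 137847 (17.7%) were open in both cell types, 236800 (30.4%) in EpiSC alone and 403285 (51.8%) in NSC alone. Common regions had a median width of 646 bp, against 314 bp for EpiSC alone and 307 bp for NSC alone. Part of this is built in, because a common region joins at least 1 site of each list. Site by site the gap was smaller. Shared and unshared EpiSC sites had median widths of 386 and 314 bp, and NSC sites 444 and 307 bp. Common regions made up 122 Mb, of which 55.0 Mb lay in sites of both lists, against 91.8 Mb for EpiSC alone and 152 Mb for NSC alone. Without the chromosome 14 stretch the common regions numbered 135483 of 759096 (17.8%).

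Sharing rose steeply with width in both cell types. Of EpiSC sites under 150 bp, 28.0% were found in NSC, of those from 500 bp to under 1 kb 46.4%, and of those of 2 kb or more 78.1%. The same classes of NSC sites were found in EpiSC in 15.0%, 37.9% and 81.4%. Without the chromosome 14 stretch the widest classes stood at 78.1% and 83.2%. Wide sites were also open in the other lists: 98.9% of the widest EpiSC sites overlapped ESC and 74.8% MEF. A wider site has more bases in which to meet another, and sites of 250 to 350 bp were therefore looked at apart. At that width 34.7% of EpiSC sites and 20.4% of NSC sites were shared.

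The score of a site, a value of unknown scale that the authors gave each site and that is ranked here only within a list, went with sharing in EpiSC and hardly in NSC. From the lowest to the highest decile of EpiSC scores the share found in NSC climbed from 26.8% to 56.3% (26.5% to 56.0% without the chromosome 14 stretch). NSC sites had no such climb: 30.7% of the lowest and 30.1% of the highest decile were found in EpiSC, with 23.0% in between at the lowest point. At 250 to 350 bp the paths parted. EpiSC sites rose from 23.0% to 47.1%, while NSC sites went from 25.3% to 16.7%, with the lowest share, 14.6%, next to the top. High-scoring NSC sites of that width were more often open in MEF (30.9% of the highest decile against 19.4% of the lowest) and less often in ESC (9.94% against 34.4%). EpiSC sites of that width were in MEF in 35.97% of the highest and 14.7% of the lowest decile, and in ESC in 36.5% and 45.6%. At that width, then, the highest decile of NSC scores was among the least shared with EpiSC, and the highest decile of EpiSC scores was the most shared with NSC.

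**Figure D1:**
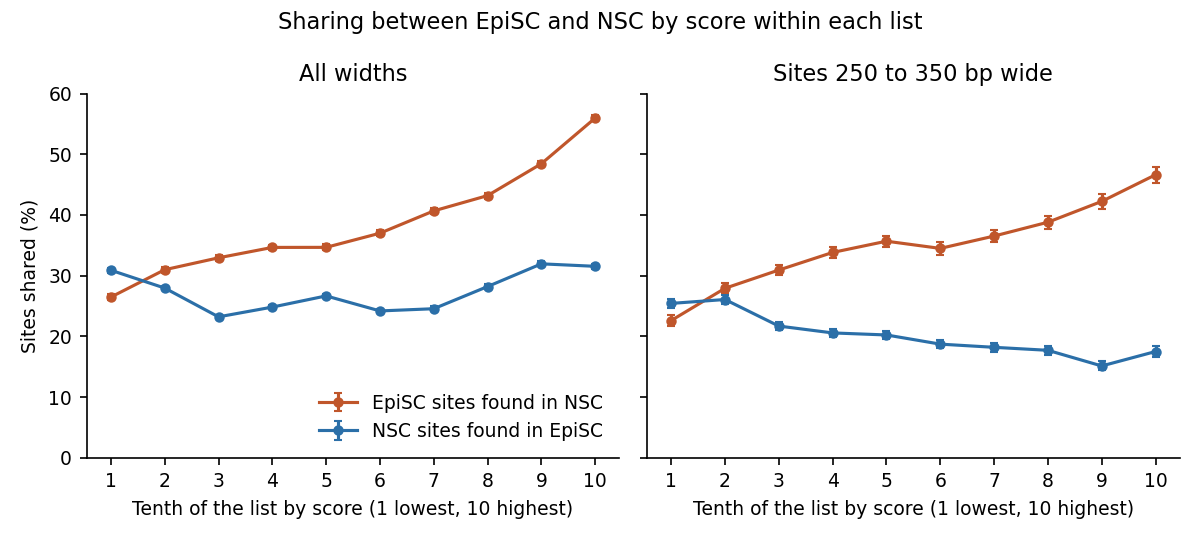
Share of EpiSC sites found in NSC and of NSC sites found in EpiSC (y axis, percent) by score decile (x axis), all widths on the left and sites of 250 to 350 bp on the right, without the chromosome 14 stretch; bars are exact 95% intervals for counting error. The EpiSC line rises from 26.5% to 56.0% on the left and from 22.6% to 46.6% on the right, and the NSC line on the right goes from 25.4% to 17.5%.

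Overlapping sites of the 2 lists, which lie close to each other by selection, differed in extent. There were 161029 overlapping pairs, 119948 of them (74.5%) with a single partner on either side. In 85.7% of pairs at least 50% of the shorter site was covered and in 46.8% all of it, whereas 4.45% of pairs met over less than 50 bp. The midpoints of single-partner pairs were a median of 113 bp apart, and 45.9% were within 100 bp. Overlap itself limits this distance, as the median widths in these pairs were 367 bp in EpiSC and 421 bp in NSC. The NSC site was the wider one in 57.0% of these pairs (56.5% without the chromosome 14 stretch). Widths of paired sites went together weakly, with a Spearman correlation of 0.23, and scores with 0.31. These correlations are across sites that share libraries and surroundings and describe the lists only. Among 5714 pairs with both sites 250 to 350 bp wide the score correlation was 0.43. Of pairs whose EpiSC site was in the highest decile of scores, 22.6% had an NSC site in the highest decile of its own list, against 3.04% for the lowest decile of EpiSC scores and 10.2% for all such pairs.

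The EpiSC sites that NSC lacked were found in ESC more often than in MEF, and the NSC sites that EpiSC lacked in MEF more often than in ESC. Of the 236800 EpiSC sites not in NSC, 39.1% (38.9 to 39.3%) overlapped ESC and 19.4% (19.3 to 19.6%) MEF. Of the 403285 NSC sites not in EpiSC, 14.6% (14.5 to 14.7%) overlapped ESC and 24.95% (24.8 to 25.1%) MEF. Shared sites were in ESC and in MEF more often than these unshared ones. Of shared EpiSC sites 54.1% were in ESC and 44.3% in MEF, and of shared NSC sites 54.6% and 45.8%. ESC above MEF was thus not particular to unshared EpiSC sites. In the upper 50% of the lists by score the ESC share of unshared NSC sites was 8.36%, and the MEF share 19.4%. Over all scores, 30.5% of the unshared EpiSC sites were in ESC and not MEF and 10.7% in MEF and not ESC. For the unshared NSC sites these were 9.98% and 20.3%. A large part was seen in a single list: 50.1% of the EpiSC sites and 65.1% of the NSC sites were in neither ESC nor MEF. At 250 to 350 bp the order held, with 31.9% in ESC and 18.1% in MEF for EpiSC, and 12.3% and 22.3% for NSC. Without the chromosome 14 stretch the values were 39.2% and 19.4% for EpiSC and 15.0% and 25.3% for NSC. The ESC and MEF lists had 438802 and 424647 autosomal sites. The EpiSC had been grown on fibroblasts, and the part of feeder cells in their MEF shares was not tested.

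Read the other way, presence in ESC or MEF went with sharing in a different order in each list. EpiSC sites also open in MEF and not in ESC were found in NSC in 48.4%, against 34.9% of those open in ESC and not in MEF, 27.6% of those in neither and 67.5% of those in both. NSC sites also open in ESC and not in MEF were found in EpiSC in 48.2%, against 22.9% of those in MEF and not ESC, 14.1% of those in neither and 69.9% of those in both. At 250 to 350 bp the EpiSC values were 47.4%, 32.4%, 27.5% and 58.3%, and the NSC values 43.3%, 18.96%, 12.8% and 55.9%. Sites that ESC and MEF both held were the widest of these classes, with a median of 556 bp in EpiSC and 621 bp in NSC.

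**Figure D2:**
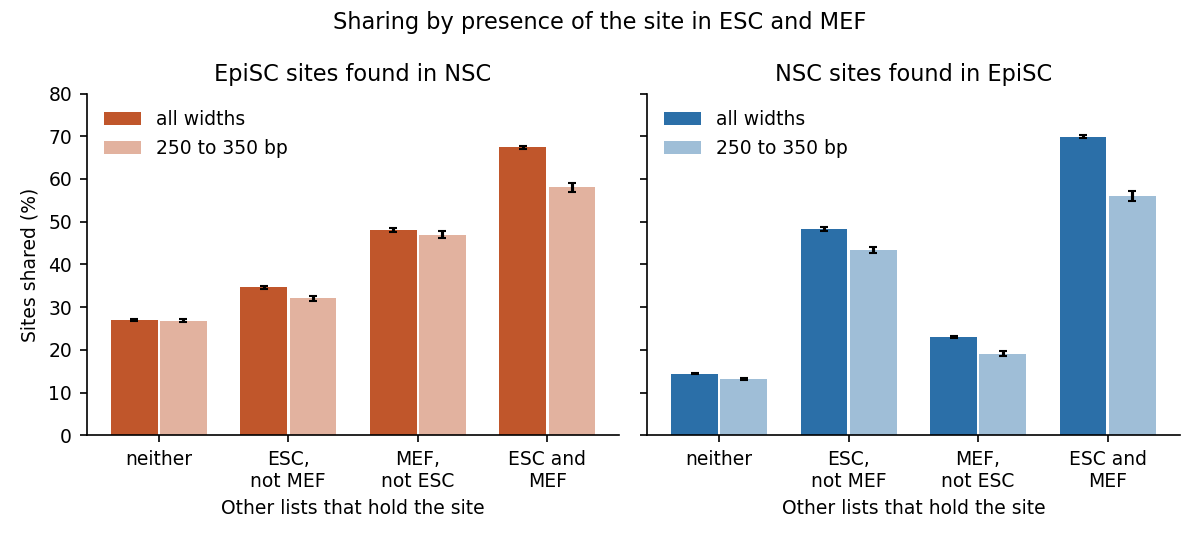
Share of sites found in the other cell type (y axis, percent) by whether ESC and MEF also hold the site (x axis), EpiSC sites on the left and NSC sites on the right, without the chromosome 14 stretch; dark bars are all widths, pale bars sites of 250 to 350 bp, and error bars exact 95% intervals. Among EpiSC sites those of MEF and not ESC (48.0%) stand above those of ESC and not MEF (34.6%), and among NSC sites the order is turned, with 23.0% and 48.3%.

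The gaps from unshared sites of one cell type to the other list were of the order of that list's own spacing. The median gap from an EpiSC site not in NSC to the nearest NSC site was 1610 bp (quartiles 583 and 4052 bp), and 37.2% lay within 1 kb. From NSC sites not in EpiSC the median was 2171 bp (795 and 5537 bp), with 29.9% within 1 kb. Within a list, neighbouring sites were a median of 1478 bp apart in NSC and 2343 bp in EpiSC. Lists this dense make short gaps likely anywhere, and closeness beyond that was not tested. Just outside the overlap rule, 9.32% of the unshared EpiSC sites and 6.67% of the unshared NSC sites lay less than 200 bp from a site of the other list. Sites more than 50 kb from any site of the other list were rare in EpiSC (1367, 0.577%) and less so in NSC (7591, 1.88%, and 5856, 1.51%, without the chromosome 14 stretch). Sharing also rose with the local number of sites of the other list. More such sites offer more bases to meet, so some rise is built in. In 100-kb windows with 1 to 9 NSC sites, 10.0% of EpiSC sites were shared, and in windows with 60 or more NSC sites 76.8% (74.3% without the chromosome 14 stretch). Windows with 1 to 9 and with 60 or more EpiSC sites gave 8.20% and 74.1% for NSC sites.

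Shared sites came in company. After a shared EpiSC site the next site of the list was shared in 52.0% of cases, and after an unshared one in 30.5%. In NSC the values were 40.9% and 21.7%. Part of this is built in, because neighbours meet the same local density of the other list. Also, 1 site can overlap several neighbours: 7.53% of the shared NSC sites met 2 or more EpiSC sites, and 6.48% of the shared EpiSC sites 2 or more NSC sites. The longest unbroken row of EpiSC sites without NSC overlap held 167 sites on chromosome 5, from 119812589 to 120434634 (622 kb). This stretch had 4 NSC sites, against 283 ESC sites and 72 MEF sites, and 111 of its EpiSC sites overlapped ESC. A row of 132 such sites lay next to it, from 119226227 to 119805895, with 9 NSC, 207 ESC and 86 MEF sites. The second longest, of 138 sites on chromosome 4 from 152786047 to 153289968, had 3 NSC, 225 ESC and 13 MEF sites. All 3 rows were thus dense in ESC as well as EpiSC, with 3 to 9 NSC sites each. The longest rows of NSC sites without EpiSC overlap, the chromosome 14 stretch aside, were sparse and long: 227 sites on chromosome 12 from 114859092 to 117284457, 196 on chromosome 6 from 73804350 to 76661090, and 192 on chromosome 8 from 51651025 to 54674150. They covered 1.75 to 2.82% of their length, against 10.6 to 14.02% in the EpiSC rows. The longest row of EpiSC sites that were all shared held 119 sites and touched the chromosome 14 stretch. Outside the stretch the longest held 46 sites on chromosome 4, from 97212040 to 97404147, where NSC had 157 sites, MEF 78 and ESC 19. A row of 27 shared NSC sites on chromosome 11, from 87966007 to 88018986, covered 52.0% of its 53.0 kb, and 23 of them were also in ESC and 18 in MEF.

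Among autosomes the EpiSC density varied more than the NSC density. Chromosome 14 aside, EpiSC ranged from 101 sites per Mb on chromosome 12 to 262 on chromosome 11, or 2.59-fold, and NSC from 201 on chromosome 7 to 265 on chromosome 11, or 1.32-fold. The ratio of NSC to EpiSC sites went from 1.01 on chromosome 11 and 1.02 on chromosome 17 to 2.17 on chromosome 12 and 2.36 on chromosome 18. The share of NSC sites found in EpiSC followed, from 17.6% on chromosome 18 and 18.7% on chromosome 12 to 41.0% on chromosome 11. The share of EpiSC sites found in NSC stayed between 34.6% on chromosome 5 and 42.9% on chromosome 7. Over these 18 chromosomes the Spearman correlation of EpiSC density was 0.93 with the NSC share and -0.19 with the EpiSC share, given as a description of this pair of lists. NSC density had a correlation of 0.58 with the EpiSC share. A chromosome denser in EpiSC sites also offers NSC sites more bases to meet, so part of the 0.93 is built in, and the same holds in reverse for the 0.58. EpiSC scores were lowest on chromosome 12 (median 2.31), where EpiSC sites were also sparse.

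**Figure D3:**
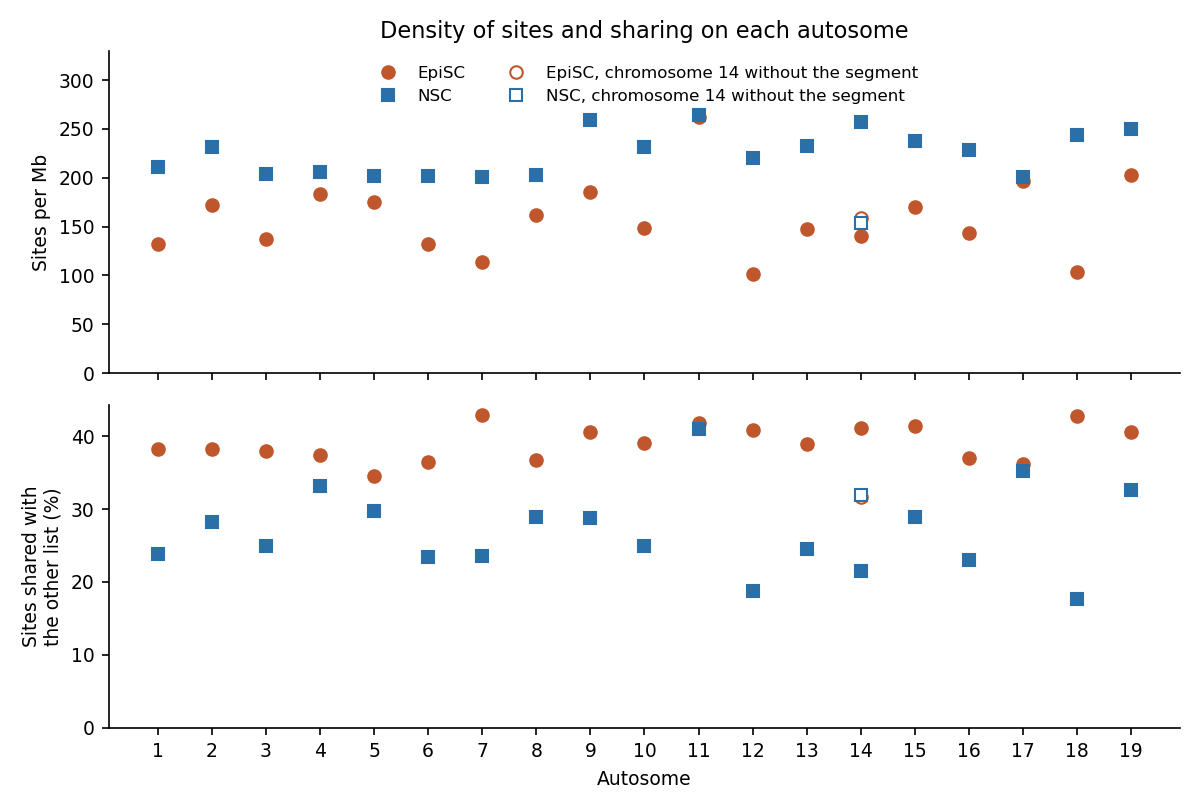
Sites per Mb (upper panel) and percent of sites shared with the other list (lower panel) for each autosome (x axis), EpiSC as circles and NSC as squares; open symbols show chromosome 14 without its distal stretch. NSC densities stay between 201 and 265 while EpiSC densities run from 101 to 262, and without the stretch chromosome 14 has 153 NSC sites and 158 EpiSC sites per Mb.

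Chromosome 14 split into stretches of opposite balance. The distal stretch was chosen in earlier work on these lists for its excess of NSC sites, so its NSC density is a description: 18366 NSC sites, or 525 per Mb and 2.40 times that of the other autosomal sequence, beside 3338 EpiSC sites, or 95.4 per Mb and 0.61 times. The EpiSC sites there were few but mostly shared, 82.2% (80.8 to 83.5%) being found in NSC, where NSC sites covered 32.2% of the bases. Only 13.6% (13.1 to 14.1%) of the NSC sites there were found in EpiSC. In single-partner pairs of the stretch the NSC site was the wider in 86.7%, with a median ratio of 2.44. EpiSC sites in the stretch were narrower than those outside (median 293 against 338 bp) and NSC sites wider (419 against 332 bp). Outside the stretch, chromosome 14 had 153 NSC sites per Mb, fewer than the lowest of the other 18 autosomes (201), and 158 EpiSC sites per Mb. The share of EpiSC sites found in NSC was 31.6% there, below the 34.6 to 42.9% of the other autosomes, whereas with the stretch included it was 41.2%. NSC scores had a median of 3.43 on chromosome 14 outside the stretch. In the 5 bins of 1 Mb beyond the stretch EpiSC had 806 sites and NSC 279.

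**Figure D4:**
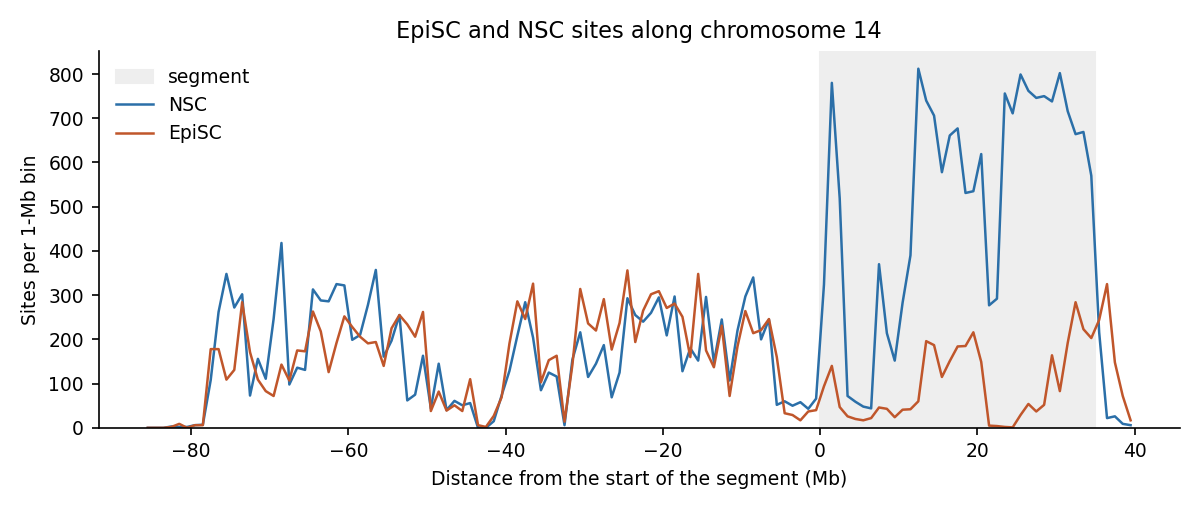
Sites per bin of 1 Mb (y axis) along chromosome 14, by distance in Mb from the start of the distal stretch (x axis), with the stretch shaded. NSC bins in the stretch reach 812 sites with a median of 619, against a median of 54 in EpiSC, and beyond it NSC bins fall to a median of 22.

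Regional balance was then mapped in bins of 1 Mb. Densities were scaled to the autosomal mean of each list, 1 site was added to each number, and bins with 20 or more sites in both lists together were compared. Of 2382 such bins, 468 (19.6%) were at least 2-fold denser in NSC and 289 (12.1%) in EpiSC; without the chromosome 14 stretch, with densities rescaled, the numbers were 461 (19.6%) and 271 (11.5%) of 2347. Of the 35 bins of the stretch, 29 were denser in NSC and none in EpiSC. Outside it, the EpiSC-denser bins had a mean of 238 EpiSC, 122 NSC, 279 ESC and 146 MEF sites. The NSC-denser bins had 62.8 EpiSC, 268 NSC, 50.5 ESC and 168 MEF sites, and the 1715 bins in neither class, some of them below the minimum of sites, 169, 220, 197 and 176. The ESC means thus followed the EpiSC means over the 3 classes. By number, EpiSC-denser bins led on chromosomes 4 (31 of 156 bins) and 5 (29 of 153). NSC-denser bins led on chromosomes 1 (47 of 198), 12 (43 of 122) and 18 (39 of 91). By share of bins, EpiSC-denser ones were most frequent on chromosomes 14 (23 of 91 outside the stretch) and 17 (24 of 96). For NSC-denser ones these were chromosomes 18 and 12, followed by 16 (31 of 99). Chromosome 18 had 1 EpiSC-denser bin and chromosome 11 had 3 NSC-denser bins.

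**Figure D5:**
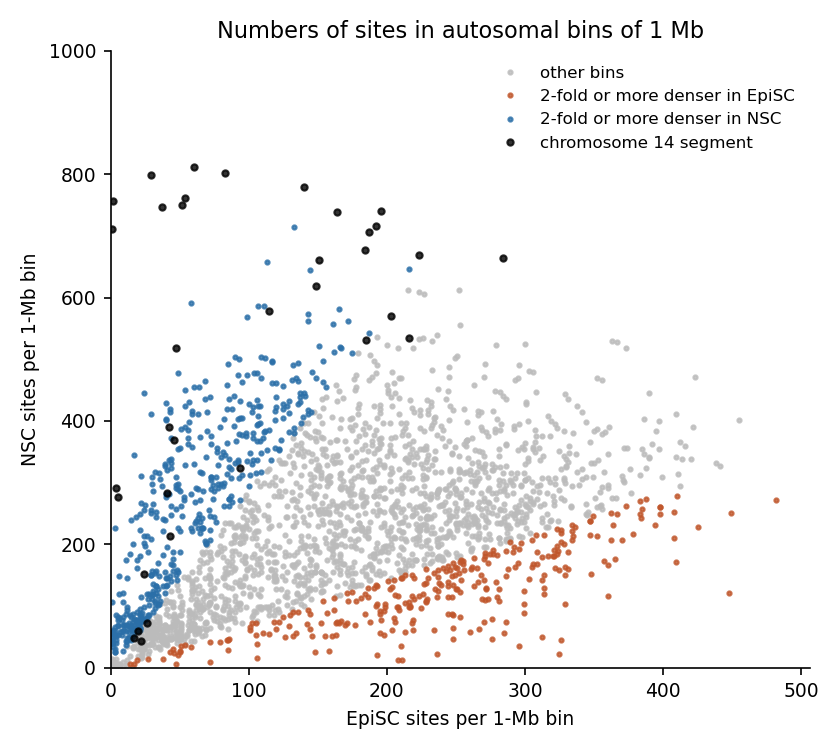
NSC sites (y axis) against EpiSC sites (x axis) in autosomal bins of 1 Mb, each point a bin; colours mark bins at least 2-fold denser in EpiSC (289) or in NSC (468, some of them within the stretch) after scaling, and black points the chromosome 14 stretch. Of the 35 black points 29 were at least 2-fold denser in NSC, up to 812 NSC sites.

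Neighbouring bins joined into longer segments, which were ranked with the chromosome 14 stretch left out. The longest EpiSC-denser segment, 8 Mb on chromosome 5 from 114000001 to 122000000, held 288 EpiSC and 112 NSC sites per Mb, with 454 in ESC and 131 in MEF. Of its EpiSC sites 21.5% were found in NSC, and of its NSC sites 56.6% in EpiSC. Also on chromosome 5, from 126000001 to 132000000, EpiSC had 236 sites per Mb and NSC 59.3, and 11.2% of the EpiSC sites were shared. The others were chromosome 14 from 55000001 to 61000000 (246 EpiSC and 143 NSC sites per Mb), chromosome 17 from 46000001 to 51000000 (303 and 164) and chromosome 4 from 150000001 to 155000000 (1500 EpiSC and 649 NSC sites over its 5 Mb). In each of these 5 segments ESC were nearly as dense as EpiSC or denser. The longest NSC-denser segment was 12 Mb on chromosome 7, from 90000001 to 102000000, with 280 NSC and 55.4 EpiSC sites per Mb. Next came chromosome 16 from 66000001 to 76000000 (330 NSC and 63.6 EpiSC sites per Mb), chromosome 1 from 143000001 to 153000000 (166 and 43.0), chromosome 5 from 78000001 to 87000000 (235 and 43.7) and chromosome 12 from 37000001 to 45000000 (323 and 49.9). In these 5 segments 36.3 to 54.1% of the EpiSC sites and 7.62 to 10.6% of the NSC sites were shared. There ESC had 19.9 to 88.7 and MEF 136 to 216 sites per Mb. The means per Mb over all bins outside the stretch were 178 in ESC and 172 in MEF.

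In windows of 100 kb the numbers of EpiSC and NSC sites had a Spearman correlation of 0.44 over the 23717 autosomal windows that held a site of any list, and 0.45 without the chromosome 14 stretch. Windows share libraries with their neighbours, so this is a description. Both lists had 5 or more sites in 17630 windows (74.3%). Only 72 windows (0.304%) held 5 or more EpiSC sites and no NSC site, and 506 (2.13%) the reverse; the stretch itself held none of the former (0.00%) and 38 of the latter (10.9%), and without it there were 72 (0.308%) and 468 (2.0%). Of the 72 windows, 22 lay on chromosome 5 and 11 on chromosome 14, and 56 had 5 or more ESC sites and 37 had 5 or more MEF sites. Of the 468 windows outside the stretch, 62 lay on chromosome 12 and 59 on chromosome 1, and 24 had 5 or more ESC sites and 387 had 5 or more MEF sites. Among all windows outside the stretch 67.3% had 5 or more ESC sites and 92.8% had 5 or more MEF sites. With lists of equal length, over all autosomes, the counts were 208 EpiSC windows and 415 NSC windows in place of 72 and 506. Only the NSC list was cut for this, which can raise the first count and lower the second but not the reverse. The direction of the change was therefore fixed in advance.

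Of windows without any NSC site, the one richest in EpiSC sites was chromosome 11 from 96000001 to 96100000, with 51 EpiSC sites that covered 27.7% of the window, 45 ESC sites and 8 MEF sites. The other 4 were all on chromosome 5: from 120100001 to 120200000 with 48 EpiSC sites, from 127200001 to 127300000 with 42, from 37400001 to 37500000 with 37 and from 119500001 to 119600000 with 36. ESC had 18 to 66 sites in these 5 windows and MEF 3 to 18. Outside the chromosome 14 stretch, the windows without any EpiSC site that were richest in NSC sites were chromosome 3 from 25600001 to 25700000 with 50 NSC sites, chromosome 7 from 94500001 to 94600000 with 41, chromosome 10 from 71500001 to 71600000 and chromosome 18 from 71900001 to 72000000 with 38 each, and chromosome 12 from 116800001 to 116900000 with 37. MEF had 14 to 19 sites in each of these and ESC 1 to 6. Over all windows outside the stretch that held a site of any list, the median was 16 MEF and 12 ESC sites. The MEF numbers of these NSC windows were thus near the median. Windows dense in both, again outside the stretch, were chromosome 15 from 27900001 to 28000000 with 66 EpiSC and 65 NSC sites, of which 51 and 52 were shared, and chromosome 11 from 87900001 to 88000000 with 64 and 63, of which 53 and 49 were shared. These were open in ESC (48 and 65 sites) and MEF (34 and 42 sites) too.

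The strongest single sites of each class were few and are given as a description only. Of all unshared EpiSC sites 39.1% were in ESC and 19.4% in MEF. The 4 highest-scoring EpiSC sites without NSC overlap, none of them in ESC and 1 in MEF, lay side by side on chromosome 8, between 125950195 and 125957498, with scores of 144, 120, 99.1 and 83.1, and the nearest NSC sites were 1482 to 5135 bp away. The next, on chromosome 17 from 35647699 to 35648029 (score 58.4), was also open in ESC. Not far from it lay the highest-scoring shared EpiSC site, chromosome 17 from 35637179 to 35640188 (3010 bp, score 37.8), which ESC also held. Its NSC partner, from 35639178 to 35639781, had a score of 1.82, above 13.1% of the NSC list. A 5915 bp EpiSC site from 35649152 to 35655066 (score 28.1) met 4 NSC sites with scores up to 9.70, and was open in all 4 lists. These 3 EpiSC sites all ranked near the top of their list. The next 4 shared EpiSC sites by score had NSC partners that ranked high in their list: chromosome 17 from 53684685 to 53685020 (score 34.4, partner above 93.2% of the NSC list), chromosome 4 from 117965584 to 117965843 (32.6, 98.5%), chromosome 11 from 102681534 to 102682297 (31.1, 91.2%) and chromosome 4 from 57556701 to 57557288 (29.2, 99.6%), each percentage taken for the highest-scoring partner. In contrast, a shared EpiSC site of 1256 bp on chromosome 8, from 37671168 to 37672423 (score 26.2), had a partner with a score of 2.59, above 29.6% of the NSC list. ESC held each of them, and MEF all but the site on chromosome 11. Of all shared EpiSC sites 54.1% were in ESC and 44.3% in MEF.

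The 5 highest-scoring NSC sites without EpiSC overlap were chromosome 13 from 83874795 to 83875109 (score 40.6), chromosome 10 from 57542119 to 57542872 (38.1), chromosome 8 from 7440118 to 7440782 (37.4), chromosome 15 from 40538104 to 40538362 (37.0) and chromosome 4 from 13444106 to 13444513 (36.4). ESC held none of them, and MEF held 4, all but the site on chromosome 15. Of all unshared NSC sites 14.6% were in ESC and 24.95% in MEF. In the highest decile of NSC scores, shared or not, these were 22.4% and 43.8%. The 5 sites are too few to set against these shares. The nearest EpiSC sites were 860 to 9685 bp away. Among NSC sites of 1 kb or more that EpiSC lacked, the second highest score belonged to a 3102 bp site on chromosome 12 from 39028628 to 39031729 (score 33.7), 17036 bp from the nearest EpiSC site and open in MEF. It lay inside the NSC-denser segment of chromosome 12. Of the 5 highest-scoring shared NSC sites, chromosome 15 from 92265091 to 92265218 (score 38.7), chromosome 6 from 29738719 to 29739908 (37.1) and chromosome 9 from 5633715 to 5634613 (36.3) were in neither ESC nor MEF. The remaining ones, chromosome 4 from 59109302 to 59109806 (38.3) and chromosome 12 from 72869521 to 72869731 (36.4), were in both. The EpiSC partners of these 5 sites stood above 85.3 to 99.0% of the EpiSC list. Inside the chromosome 14 stretch the highest-scoring shared EpiSC site, from 87714887 to 87715083 (score 27.2), had a partner above 99.1% of the NSC list, while the highest-scoring shared NSC site, from 87025087 to 87025283 (32.3), had an EpiSC partner above 70.7%. The highest NSC site without EpiSC overlap there was from 98270947 to 98271487 (34.8), 2733 bp from the nearest EpiSC site.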

How the data were processed

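FAIRE-seq libraries were amplified by PCR, size-selected on gels and sequenced on an Illumina Genome Analyzer, per the labels' protocols. CASAVA 1.8 and build mm9 are named in the submitters' processing notes. Not given in the sources used here were the aligner, the caller's settings, the use of the genomic control and any pooling of replicates. Each deposited list holds positions, a score per site made by the authors on a scale that is not stated, and a display value within 1 of 100 times that score, capped at 1000. Each list is filed with replicate 2 of its 2 samples, and the other samples were not analysed here as files.

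Positions were taken as BED coordinates and are printed 1-based. A site lay in the chromosome 14 stretch by its midpoint. Densities used each chromosome's length to its last listed site. Shares have exact Clopper-Pearson 95% intervals; depth is unknown. The named sites are the 5 highest scores of each class (shared or not, per list) outside the stretch, the 3 highest of 1 kb or more and the 3 highest inside it. The named windows, segments and rows are the first 5, 5 and 3 by number of sites or length; not all are printed. The comparison, lists and rules were chosen with earlier results of these data known. The planned gene lists, marker check and sequences were not run, as no mm9 annotation or genome was used here. Alternatives were overlap, score, list length, merging, width, chromosomes left out, window size and, added after seeing the data, windows with no site of any list.

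The work ran in Python 3.11.15 with scipy 1.17.1 for intervals and correlations, numpy 2.4.6 and pandas 2.3.3 for tables, and matplotlib 3.10.9 for plots. Overlaps and gaps were tested on simulated data and checked against bedtools 2.31.1, with equal counts.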

Additional observations from a re-analysis of the deposited data

How the results depend on the processing

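No paired analysis was possible because the lists carry no replicates, so none could be left out either. Of the alternative values, 22 stayed within the limits set for a stable value and 65 moved. The cause was not tested. The limits were wide for counts, so a count among the 22 need not be steady. With lists of equal length the EpiSC-denser bins went from 289 to 418 and the NSC-denser bins from 468 to 535, both within the limits. EpiSC sharing of 38.9% against 38.5% without the chromosome 14 stretch was a move. With an overlap of 50% of the shorter site, EpiSC sharing was 34.4% and NSC sharing 23.6%. Without the chromosome 14 stretch these were 38.5% and 27.4%, with the upper 50% of each list by score 28.6% and 19.5%, with sites under 200 bp apart merged 39.1% and 27.8%, without chromosomes 7, 12 and 18 38.5% and 28.0%, without chromosome 11 38.6% and 26.0%, and at 250 to 350 bp 34.7% and 20.4%. With lists of equal length EpiSC sharing was 28.3%.

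Of unshared EpiSC sites, the shares in ESC, MEF and neither were 35.8%, 16.4% and 54.9% at 50% overlap, 31.5%, 13.4% and 60.3% in the upper 50% by score, 38.7%, 18.6% and 51.0% at equal length, and 31.9%, 18.1% and 56.2% at 250 to 350 bp. The shares in ESC and in neither were 38.5% and 50.7% after merging and 38.9% and 50.4% without chromosome 11. Of unshared NSC sites, the shares in ESC, MEF and neither were 13.0%, 20.8% and 70.0% at 50% overlap, 15.0%, 25.3% and 64.4% without the stretch, 8.36%, 19.4% and 74.6% in the upper 50%, 11.03%, 25.4% and 67.4% at equal length, 14.9%, 25.3% and 64.6% after merging, and 12.3%, 22.3% and 68.7% at 250 to 350 bp. The shares in ESC and in neither were 14.4% and 65.3% without chromosomes 7, 12 and 18, and 14.3% and 65.4% without chromosome 11.

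Of the bases of either list, 15.0% were shared, against 15.3% without the stretch, 12.02% in the upper 50% and 13.5% at equal length. Windows with 5 or more EpiSC sites and no NSC site numbered 385 at 50 kb, 7 at 200 kb and 208 at equal length. The reverse windows numbered 1242 at 50 kb, 181 at 200 kb and 415 at equal length. The correlation across windows was 0.42 at 50 kb, 0.45 at 200 kb, 0.45 without the stretch and 0.50 with windows empty in every list included. Annotation with the planned gene lists was not done. With depth unknown, a longer list cannot be told apart from a deeper library.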
